A study of Mus musculus with 20 samples.

Results

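The effect of intermittent hypoxia on liver gene expression was measured across gonadal states, by comparing all hypoxic with all normoxic livers while the operation each mouse had undergone was held as a covariate. The comparison used 19 libraries, 10 from hypoxic and 9 from normoxic mice, of 20 labelled mice. The interest lay in genes that hypoxia moved whatever the gonadal state. Of 16164 tested genes 713 passed the test over all livers, which does not require a change after each operation. Taken apart, 49 genes were called within sham-operated and 12 within orchiectomized livers.

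RNA sequencing was done on livers of male mice that had been orchiectomized (ORX), which removes the testes and the androgens they make, or had undergone a sham operation (Sham). The mice then lived in normoxia (Nx) or intermittent hypoxia (IH), cycles of low and normal oxygen used as a model of sleep apnoea, for 2 weeks. Sham_Nx had 4 libraries and Sham_IH, ORX_Nx and ORX_IH had 5 each, and the mouse numbered 1 of Sham_Nx was not analysed here. Every library is of its own mouse, and the strain, the age of the mice and the depth and timing of the hypoxic cycles were not given in the sources used here.

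Cells sense low oxygen through prolyl hydroxylases, which mark hypoxia-inducible factors for degradation while oxygen is present. When oxygen falls the factors persist and switch on genes of glycolysis, blood vessel growth and red cell production. In the liver, hypoxia also touches lipid storage and oxidation, sterol synthesis and iron handling, and many liver genes additionally differ between the sexes through the growth hormone pattern that androgens set.

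Estimated counts per library lay between 29.3 and 69.6 M, with a median of 57.4 M in hypoxic and 56.6 M in normoxic livers, so depth was similar in both exposures. Some libraries stood apart through RNA of other tissues or of inflammatory genes. The summed level of 16 skeletal muscle markers was 1383 CPM (counts per M counts of the library) in ORX_IH 1, 823 in ORX_IH 2, 235 in Sham_Nx 2 and 59.6 in Sham_Nx 3, and at most 47.3 CPM elsewhere. Pancreatic acinar markers summed to 1391 CPM in Sham_IH 5, 563 in Sham_Nx 5 and 250 in ORX_IH 1, and to at most 28.8 CPM elsewhere. Macrophage markers reached 1330 CPM in ORX_Nx 4 and 857 CPM in ORX_Nx 5, where neutrophil markers also peaked, at 51.8 and 12.5 CPM. Acute phase and inflammation genes summed to 36390 and 28090 CPM in these normoxic libraries, and to at most 24800 CPM elsewhere. ORX_Nx 5 also had the lowest sums of hepatocyte and pericentral hepatocyte markers, 93240 and 5067 CPM. The number of called genes is therefore also given without these libraries. The counts of several lists are given with some of these libraries left out. The part these tissues and inflammatory genes play in the results was not tested.

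In hypoxic livers 4 of 22 genes of lipid storage and uptake, 3 of 26 of fatty acid oxidation, 8 of 26 of the interferon response and 8 of 22 of the cell cycle fell, against 2.57% of all tested genes. Of 25 genes of cholesterol synthesis 5 rose, against 1.84% of all tested genes. Without the 4 libraries richest in muscle RNA these counts were 1, 0, 0, 0 and 0. The lipid regulator Pparg fell 1.55-fold and the lysosomal enzyme gene Hexa 1.46-fold. The female-biased genes Cux2 and Cyp39a1 rose 2.77-fold and 2.12-fold, while 12 of the 24 genes on their list had negative fold changes. Of 26 classical targets of the hypoxia-inducible factors 1 passed the test (3.85%, against 4.41% of all tested genes).

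In edgeR's quasi-likelihood test with surgery as an additive term, 713 genes (4.41%) had a Benjamini-Hochberg (BH) adjusted p under 0.05, the threshold used throughout. Of these, 297 rose (1.84% of the tested genes) and 416 fell (2.57%). Most changes were small: the median absolute log2 fold change was 0.33 among the called genes and 0.12 among all tested genes, and 14 of the risers and 54 of the fallers changed at least 2-fold. In 19 genes (0.118%) every hypoxic library lay on one side of every normoxic library. The 12 lower in hypoxia were Hexa, Tmem64, 5031439G07Rik, Pik3c3, Tmem184b, Zfpm1, Cmip, Knop1, Mcm4, Ckap2, Ccna2 and Rnf4, and among the 7 higher were Prelid3b, Bzw2, E2f4, Acvr1 and Nudt22.

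The number of called genes rested on the libraries used. All 713 genes kept their direction when the 4 muscle-rich libraries were dropped, but they had been chosen in a fit that held the remaining libraries, which bears on that. That setting left 2 Sham_Nx livers. In it 8 genes were called, namely Pparg, Hexa and Rab30, which fell, and Ptpn3, Cyp4f14, Apom, Rbfox2 and Rps4l, which rose. Of the members of all gene lists below only Pparg and Apom were among these 8, so every other list had no called member in that setting. Without the 3 libraries highest in pancreatic genes 196 were called, and without ORX_Nx 4 and ORX_Nx 5 the number was 695.

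**Figure D1:**
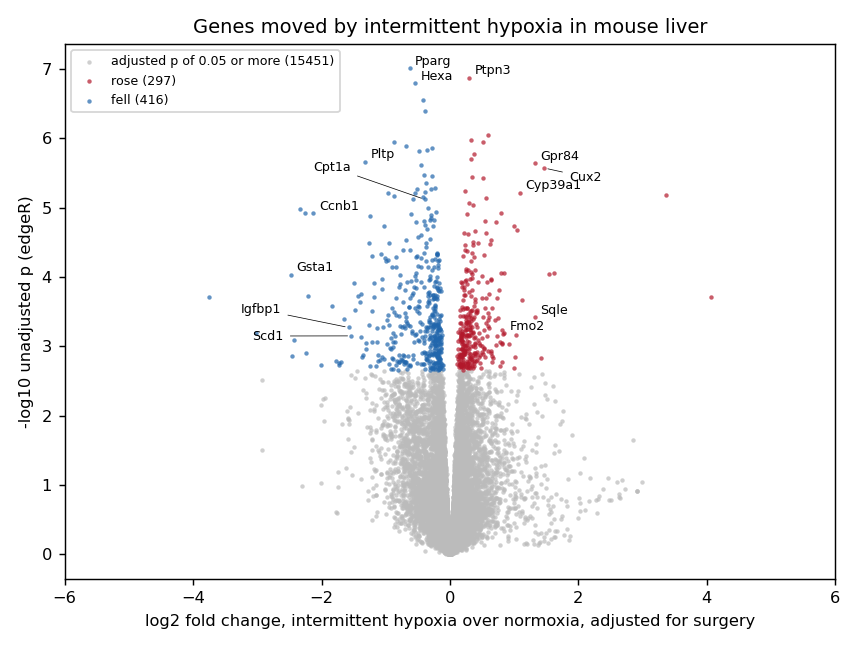
Each point is a tested gene, placed by its log2 fold change between hypoxic and normoxic livers adjusted for surgery (x axis) and by minus log10 of its unadjusted edgeR p (y axis). Of the called genes 297 rose (red) and 416 fell (blue), most of them by less than 2-fold, and 1 gene beyond a log2 fold change of 6 is not drawn.

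The smallest p of all genes belonged to a regulator of lipid storage. Pparg (ENSMUSG00000000440), a nuclear receptor that drives lipid storage in fat cells and fatty liver, ranged from 4.92 to 9.02 CPM in hypoxic livers, with a median of 6.21 CPM. In normoxic livers it ranged from 8.07 to 12.5 CPM, with a median of 9.78 CPM. All 5 Sham_IH livers lay below all 4 Sham_Nx livers, and after orchiectomy ORX_IH 3, at 9.02 CPM, exceeded ORX_Nx 5, at 8.72 CPM. Its log2 fold change was −0.63 ± 0.08 (SE, 10 against 9 mice; edgeR BH-adjusted p = 0.000861), and the call held without each library in turn.

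Of 22 genes on the lipid droplet and uptake list 4 fell and none rose, with a median log2 fold change of −0.086 against −0.00077 over all tested genes. Besides Pparg these were Cd36, a fatty acid transporter at the cell surface, Plin2, a coat protein of lipid droplets, and Angptl4, a secreted inhibitor of lipoprotein lipase. Plin2 lay between 314 and 621 CPM in hypoxic and between 438 and 1106 CPM in normoxic livers, and fell by 0.71 ± 0.16 on the log2 scale (edgeR BH-adjusted p = 0.0211). It fell by 1.10 ± 0.21 after sham operation and 0.36 ± 0.20 after orchiectomy, a difference that did not pass (edgeR BH-adjusted p = 0.736). Cd36 fell by 0.85 ± 0.19 (edgeR BH-adjusted p = 0.0159) and Angptl4 by 0.95 ± 0.23 (edgeR BH-adjusted p = 0.0252). Lipoprotein lipase itself, Lpl, had a log2 fold change of 0.28 and did not pass. With the 4 muscle-rich libraries dropped 1 of the 4 calls was left, that of Pparg. The call of Plin2 was also lost without the 3 pancreas-rich libraries, while those of Pparg and Cd36 held there.

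The called genes of fatty acid oxidation also fell. On this list of 26 genes 3 fell, none rose, 23 had negative fold changes, and the median was −0.21. Cpt1a, the carnitine acyltransferase that admits fatty acids to mitochondria, ranged from 412 to 591 CPM in hypoxic livers and from 546 to 732 CPM in normoxic livers. The ranges of Cpt1a did not overlap within either operation, and its log2 fold change was −0.39 ± 0.07 (edgeR BH-adjusted p = 0.00323). Acot2, a mitochondrial acyl-CoA thioesterase, fell by 1.08 ± 0.21 and Pex11a, which takes part in peroxisome division, by 0.66 ± 0.16 (edgeR BH-adjusted p = 0.00816 and 0.0247). After sham operation Acot2 fell by 1.55 ± 0.27 and Pex11a by 0.98 ± 0.21, and after orchiectomy by 0.65 ± 0.25 and 0.38 ± 0.20. Neither difference between operations passed (edgeR BH-adjusted p = 0.739 and 0.781). The regulators Ppara and Creb3l3 stood at −0.39 ± 0.13 and −0.18 ± 0.05 and did not pass. Without ORX_Nx 4 and ORX_Nx 5 the number of members of the fatty acid oxidation and ketogenesis list that fell was 10, and without the 4 muscle-rich libraries it was 0. Without the 3 pancreas-rich libraries the call of Pex11a was lost, while those of Cpt1a and Acot2 held.

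Of 20 genes for fatty acid and triglyceride synthesis 2 fell (10%, against 2.57% of all tested genes) and none rose, although the median was 0.17. Scd1, the desaturase that makes monounsaturated fatty acids, spread widely, from 706 to 5973 CPM in hypoxic livers, with a median of 984 CPM, and from 1337 to 8395 CPM in normoxic livers, with a median of 4523 CPM. All 5 Sham_IH livers were lower than all 4 Sham_Nx livers for Scd1, whereas ORX_IH livers reached 5973 CPM and overlapped ORX_Nx. The gene fell by 1.54 ± 0.38 on the log2 scale (edgeR BH-adjusted p = 0.0286), a call lost when Sham_Nx 2, Sham_Nx 5, Sham_IH 1, Sham_IH 2, Sham_IH 3 or ORX_IH 2 was left out. The call of Scd1 was also lost without the 3 pancreas-rich libraries. Elovl5, an elongase of polyunsaturated fatty acids, fell by 0.46 ± 0.09 (edgeR BH-adjusted p = 0.0101).

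Carriers of plasma lipid moved in both directions. Pltp, which transfers phospholipid between lipoprotein particles, fell 2.50-fold, with values from 15.8 to 38.4 CPM in hypoxic and from 29.8 to 111 CPM in normoxic livers. Its Sham groups did not overlap, and 1 ORX_Nx liver, replicate 5 at 31.1 CPM, lay within the range of ORX_IH. The log2 fold change of Pltp was −1.32 ± 0.20 (edgeR BH-adjusted p = 0.00218). Apoa5, an apolipoprotein that lowers plasma triglyceride, fell by 0.51 ± 0.10 (edgeR BH-adjusted p = 0.00847). Apom, which carries sphingosine phosphate on high-density lipoprotein, rose by 0.51 ± 0.08 from 121 ± 3.78 (SD, n = 4) to 188 ± 21.8 CPM (SD, n = 5) in sham-operated and from 136.5 ± 17.0 to 180 ± 30.1 CPM (SD, n = 5 each) in orchiectomized livers (edgeR BH-adjusted p = 0.00262). The cholesterol exporter Abca1 rose by 0.24 ± 0.06 (edgeR BH-adjusted p = 0.0247). These 4 genes were the called members among 19 on the apolipoprotein and HDL list, whose median was 0.02. Of that list 10.5% rose and 10.5% fell, against 1.84% and 2.57% of all tested genes. Without the pancreas-rich libraries 1 of that list rose and 2 fell.

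**Figure D2:**
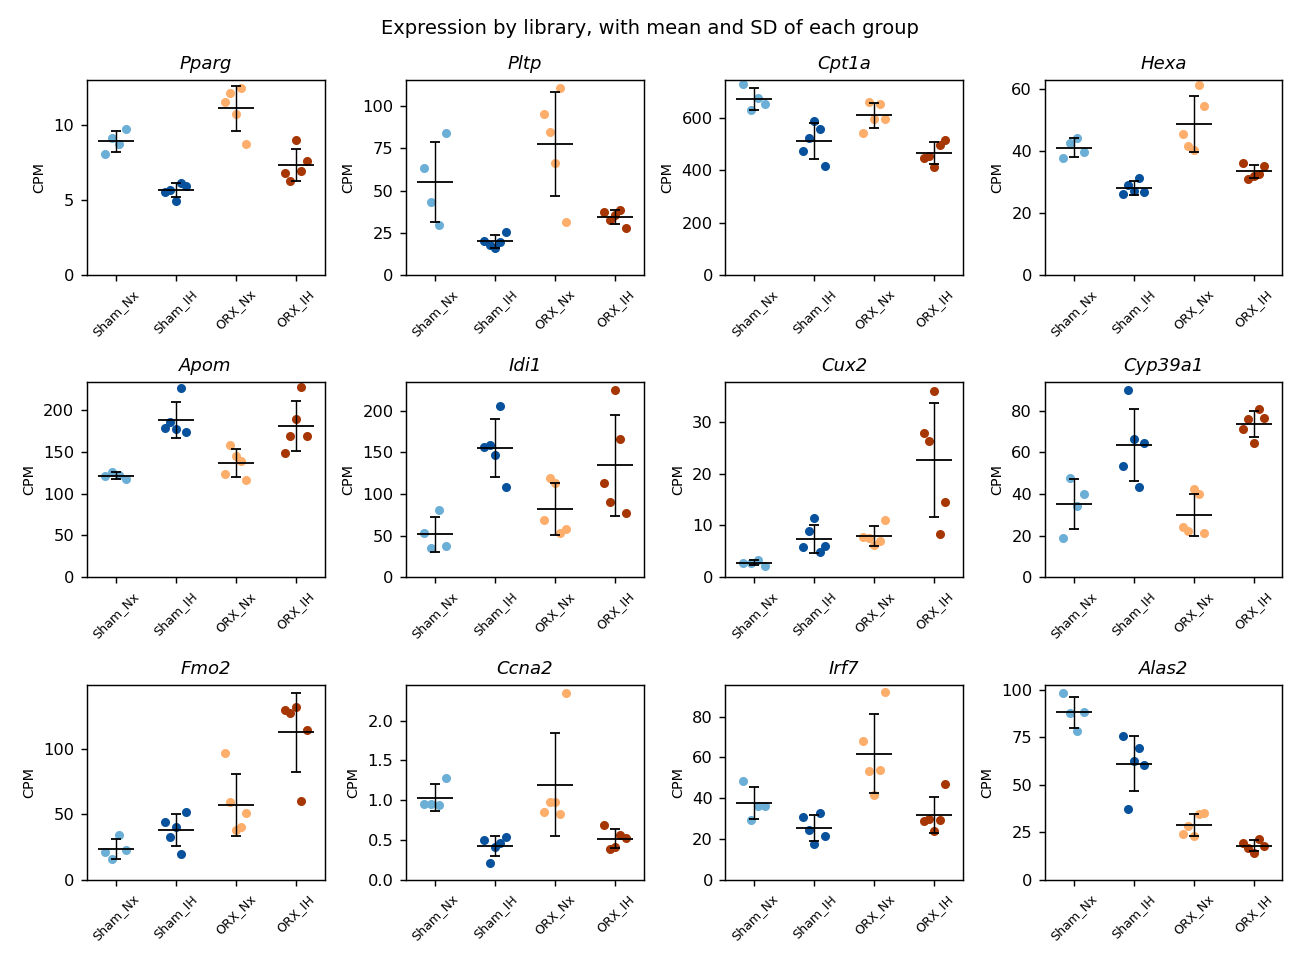
Each point is 1 library, horizontal lines are group means and bars the SD, in CPM scaled by the trimmed mean of M-values. The means of hypoxic groups (dark colours) lie below those of their normoxic groups for Pparg, Cpt1a, Hexa and Ccna2 and above them for Apom, Cux2 and Cyp39a1.

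Cholesterol synthesis genes had mostly positive fold changes. Of 25 members 24 were positive, 5 rose (20.0%, against 1.84% of all tested genes), none fell, and the median was 0.66. Idi1, the isomerase that activates isoprene units, had values of 53.2, 34.5, 80.8 and 38.0 CPM in Sham_Nx and of 156, 159, 147, 206 and 108 CPM in Sham_IH. After orchiectomy it had values of 68.1, 119, 113, 52.8 and 57.4 CPM in ORX_Nx and of 113.6, 90.8, 225, 166 and 77.7 CPM in ORX_IH. The Sham groups were thus apart and the ORX groups overlapped, and Idi1 rose 2.17-fold, with a 95% interval of its log2 fold change from 0.64 to 1.60 (edgeR BH-adjusted p = 0.0164). Sqle, the squalene epoxidase, rose by 1.32 ± 0.31 (edgeR BH-adjusted p = 0.0222), or by 2.16 ± 0.37 after sham operation and 0.62 ± 0.33 after orchiectomy, and its difference between operations did not pass (edgeR BH-adjusted p = 0.654). The other members that rose were Lss, the lanosterol synthase, and Mvk and Mvd, both of the mevalonate pathway, at 0.82 ± 0.20, 1.01 ± 0.27 and 0.77 ± 0.22.

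Srebf2, the master regulator of these genes, stood at 0.42 ± 0.12 and did not pass. No member of the cholesterol synthesis list was called without the 4 muscle-rich libraries or without the 3 pancreas-rich libraries, although 24 members stayed positive in each case, with medians of 0.70 and 0.69. Without ORX_Nx 4 and ORX_Nx 5 the number that rose was 2. The call of Sqle ended without Sham_Nx 5, and that of Lss without Sham_Nx 3 or Sham_Nx 5.

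Genes that follow feeding and insulin moved at a few points. Igfbp1, an insulin-repressed binding protein of insulin-like growth factors, ranged from 4.60 to 32.7 CPM in hypoxic and from 13.9 to 103 CPM in normoxic livers and fell by 1.58 ± 0.38 (edgeR BH-adjusted p = 0.0254). The related Igfbp2 rose by 0.70 ± 0.17 (edgeR BH-adjusted p = 0.0236). Mlx, the partner of the glucose-sensing factor ChREBP, rose by 0.23 ± 0.04, with ranges that did not overlap within either operation (edgeR BH-adjusted p = 0.00312). On the list of 23 genes of glycolysis and glucose metabolism 1 rose and 1, Igfbp1, fell, and the median was −0.0237. That is 4.35% each, against 1.84% and 2.57% of all tested genes. Without the 3 pancreas-rich libraries 1 member of that list rose and none fell.

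In the oxygen-sensing pathway 1 gene passed after 2 weeks of exposure. Among 26 targets of hypoxia-inducible factors 1 rose (3.85%, against 1.84% of all tested genes), Egln3, the prolyl hydroxylase that low oxygen induces, and none fell, with a median of −0.06. Egln3 ranged from 22.8 to 31.4 CPM in hypoxic livers and from 18.9 to 24.9 CPM in normoxic livers. Its ranges overlapped and its log2 fold change was 0.25 ± 0.07 (edgeR BH-adjusted p = 0.0471), a call that ended when any of 12 libraries was left out, with no scaling factors, with no filter on low counts and in the authors' deposited table. Vegfa, the vessel growth factor, stood at 0.18 ± 0.07 and Pfkfb3, a glycolytic regulator, at 0.47 ± 0.15, and neither passed. None of 11 genes of the sensing machinery was called. Among these Epas1, which encodes the factor HIF-2 alpha, had the smallest p, at 0.25 ± 0.10 (edgeR BH-adjusted p = 0.147), and Hif1a stood at 0.04 ± 0.06.

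Iron and haem genes, which follow red cell demand, moved in part. Alas2, the haem synthesis enzyme of red cell precursors, stood in normoxia at 88.1 ± 8.31 CPM after sham operation (SD, n = 4), and hypoxic sham-operated livers held 61.0 ± 14.6 CPM (SD, n = 5). After orchiectomy the level of Alas2 was 28.9 ± 5.75 CPM in normoxia and 17.7 ± 2.87 CPM in hypoxia (SD, n = 5 each). The exposures did not overlap within either operation, and Alas2 fell by 0.62 ± 0.12 (edgeR BH-adjusted p = 0.00784). It was the only called member of 10 erythroid markers (10% fell, against 2.57% of all tested genes), whose median was 0.13. Hamp2, a paralog of the iron hormone hepcidin, fell by 1.14 ± 0.29 (edgeR BH-adjusted p = 0.0308). Its level was 193 ± 65.9 in ORX_Nx and 67.2 ± 28.1 CPM in ORX_IH (SD, n = 5 each), while Sham_Nx livers held 6.13 ± 3.03 CPM (SD, n = 4) and Sham_IH livers 3.95 ± 1.64 CPM (SD, n = 5), so that only the ORX groups were apart. Hepcidin itself, Hamp, stood at 0.17 ± 0.28, and the split of reads between both near-identical genes is uncertain. Of the 17 genes on the iron and hepcidin list Hfe and Ftl1 also fell and Hjv rose, and the calls of Hamp2, Hfe and Hjv were each lost when any of 6, 12 or 14 libraries was left out. On this list 17.6% fell and 5.88% rose, against 2.57% and 1.84% of all tested genes. Without the pancreas-rich libraries no member of the iron and hepcidin list was called, and without ORX_Nx 4 and ORX_Nx 5 the count was 1. None of 12 genes of haem synthesis and breakdown was called.

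Cux2 (ENSMUSG00000042589), a female-biased transcriptional regulator, had 2.72, 2.66, 3.41 and 2.25 CPM in Sham_Nx and 5.89, 8.88, 11.4, 4.77 and 5.93 CPM in Sham_IH. After orchiectomy it had 7.82, 7.59, 6.30, 7.01 and 11.1 CPM in ORX_Nx and 28.0, 26.4, 36.1, 8.37 and 14.6 CPM in ORX_IH. The Sham groups were apart, and ORX_IH 4 overlapped ORX_Nx. Cux2 rose by 1.47 ± 0.22 (edgeR BH-adjusted p = 0.00228). Cyp39a1, an oxysterol hydroxylase of bile acid synthesis, rose by 1.09 ± 0.18, with all ORX_IH livers, between 64.5 and 80.9 CPM, above all ORX_Nx livers, between 21.2 and 42.3 CPM (edgeR BH-adjusted p = 0.00312). Of 24 genes on the female-biased list 3 rose (12.5%, against 1.84% of all tested genes), Cux2 and Cyp39a1 among them, and none fell. On this list 12 members had positive and 12 negative fold changes, and the median was 0.05. Without the pancreas-rich libraries 3 of the female-biased liver genes rose and none fell, with a median of −0.066, and without ORX_Nx 4 and ORX_Nx 5, 3 rose and 2 fell, with a median of −0.00619. Of 22 male-biased genes Cyp4a12a alone fell (4.55%, against 2.57% of all tested genes), by 1.30 ± 0.33 (edgeR BH-adjusted p = 0.0312), and the list's median was 0.19. The call of Cyp4a12a was lost when any of 8 libraries was left out, without the pancreas-rich libraries and without ORX_Nx 4 and ORX_Nx 5. Reads of Cyp4a12a can be shared with a near-identical relative.

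Enzymes that clear foreign compounds were called in both directions. Gsta1, an alpha-class glutathione transferase, lay between 0.124 and 1.02 CPM in hypoxic and between 0.614 and 14.1 CPM in normoxic livers and fell by 2.48 ± 0.50 (edgeR BH-adjusted p = 0.0115). Its near-identical relative Gm3776 fell by 2.21 ± 0.48 (edgeR BH-adjusted p = 0.0157), and the division of reads between both genes is uncertain. Ephx1, the microsomal epoxide hydrolase, fell by 0.40 ± 0.08, and Cyp3a25 rose by 0.50 ± 0.11 (edgeR BH-adjusted p = 0.0137 and 0.0159). With Cyp3a13, which rose, these were the called members among 27 xenobiotic metabolism genes, with a median of 0.0546. Of that list 7.41% rose and 7.41% fell, against 1.84% and 2.57% of all tested genes. Without the pancreas-rich libraries 1 of the 27 rose and none fell, and without ORX_Nx 4 and ORX_Nx 5, 3 rose and 2 fell. Outside that list Fmo2, a flavin-containing monooxygenase, rose by 0.85 ± 0.21 (edgeR BH-adjusted p = 0.0279), a call lost without Sham_Nx 2, Sham_Nx 3, Sham_Nx 5 or ORX_IH 2, while its relatives Fmo4, Fmo5 and Fmo1 stood at 0.31 ± 0.10, 0.23 ± 0.11 and 0.18 ± 0.10 and did not pass. Cyp4f14, also outside it, which hydroxylates leukotriene and vitamin side chains, rose by 0.52 ± 0.07, from 191 ± 14.5 (SD, n = 4) to 268 ± 31.8 CPM (SD, n = 5) after sham operation and from 203 ± 30.8 to 295 ± 30.5 CPM (SD, n = 5 each) after orchiectomy (edgeR BH-adjusted p = 0.00191). Of 19 genes of bile acid synthesis and transport 1 fell (5.26%, against 2.57% of all tested genes), the phospholipid exporter Abcb4. It fell by 0.23 ± 0.06 (edgeR BH-adjusted p = 0.032), a call lost when any of 7 libraries was left out. The rate-limiting enzyme gene Cyp7a1 stood at 0.11 ± 0.21.

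Stress response genes gave small shifts. Atf4, the effector of the integrated stress response, ranged from 90.8 to 125 CPM in hypoxic and from 69.2 to 95.8 CPM in normoxic livers. Within each operation the ranges of Atf4 did not overlap, and it rose by 0.36 ± 0.06 (edgeR BH-adjusted p = 0.0037). Of 19 genes on the integrated stress response list Sesn2, which restrains growth signalling and was 1 of 4 fallers on the antioxidant list, fell by 0.45 ± 0.09, and the median was −0.23. On the integrated stress response list 5.26% rose and 5.26% fell, against 1.84% and 2.57% of all tested genes. Without ORX_Nx 4 and ORX_Nx 5, 1 member of the integrated stress response list rose and 2 fell, and the median was 0.0036. Nfe2l2, which encodes the antioxidant regulator NRF2, fell by 0.20 ± 0.04, and Sesn3 by 0.26 ± 0.05 (edgeR BH-adjusted p = 0.00816 and 0.0136). With Gpx4, a peroxidase that repairs lipid peroxides, 4 of 26 genes of the antioxidant and NRF2 response fell (15.4%, against 2.57% of all tested genes), none rose, and the median was −0.10. The number that fell was 0 without the muscle-rich libraries, 1 without the pancreas-rich libraries and 4 without ORX_Nx 4 and ORX_Nx 5. No gene was called among 22 of the unfolded protein response, 15 cytosolic heat shock genes, 16 glucocorticoid-responsive genes or 19 circadian clock genes.

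Interferon-stimulated genes had mostly negative fold changes. Of 26 members 8 fell (30.8%, against 2.57% of all tested genes), none rose, 25 had negative fold changes, and the median was −0.67. Irf7, the transcription factor that amplifies interferon production, ranged from 17.5 to 47.1 CPM in hypoxic and from 29.3 to 92.0 CPM in normoxic livers, with medians of 28.9 and 48.2 CPM. The ranges of Irf7 overlapped, and it fell by 0.78 ± 0.16 (edgeR BH-adjusted p = 0.0129). The antiviral genes Oas2, Mx1, Rsad2, Oasl2, Ifi44 and Oas1a and the chemokine gene Cxcl10 fell by between 0.67 and 0.95 on the log2 scale, with edgeR BH-adjusted p between 0.0222 and 0.0481. The call of Oas2 ended without Sham_Nx 2, and that of Mx1 without Sham_Nx 2, Sham_Nx 5, Sham_IH 1 or Sham_IH 3.

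The interferon response counts moved with single libraries. Without Sham_Nx 2 the number that fell was 1, without the 4 muscle-rich libraries 0, without the pancreas-rich libraries 1 and without ORX_Nx 4 and ORX_Nx 5 it was 5, with medians of −0.69 in the second and −0.60 in the last case. Macrophage markers summed to between 207 and 446 CPM in hypoxic livers and between 239 and 1330 CPM in normoxic livers, with medians of 282 and 356 CPM. All 14 tested markers of this list had negative fold changes, with a median of −0.59, and none was called. Adgre1, the F4/80 antigen of macrophages, stood at −0.91 ± 0.28 (edgeR BH-adjusted p = 0.0648). In whole liver fewer cells of a type and less RNA per cell cannot be told apart, and the part of macrophages in the interferon shift was not tested.

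The start regions of 3 interferon genes that fell are shown because they carry the sequence by which interferon-stimulated genes are known to be recognised. The RefSeq windows of build GRCm38.p6, an older build than the authors used, reach from 250 bases before to 50 bases after the gene start, and genes were chosen after their values were seen. The interferon-stimulated response element, searched as GAAA, any 2 bases and GAAA on both strands, is in capitals and can overlap itself. Rsad2 is at chr12:26456403-26456702, Cxcl10 at chr5:92348840-92349139 and Oas1a at chr5:120907476-120907775, all read 5′ to 3′ on the minus strand.
Rsad2: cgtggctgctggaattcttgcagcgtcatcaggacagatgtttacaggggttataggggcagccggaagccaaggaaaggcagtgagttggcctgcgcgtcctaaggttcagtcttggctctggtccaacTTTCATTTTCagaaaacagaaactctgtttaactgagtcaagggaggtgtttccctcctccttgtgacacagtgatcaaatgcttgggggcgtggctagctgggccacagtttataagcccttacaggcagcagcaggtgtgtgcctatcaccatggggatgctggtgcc
Cxcl10: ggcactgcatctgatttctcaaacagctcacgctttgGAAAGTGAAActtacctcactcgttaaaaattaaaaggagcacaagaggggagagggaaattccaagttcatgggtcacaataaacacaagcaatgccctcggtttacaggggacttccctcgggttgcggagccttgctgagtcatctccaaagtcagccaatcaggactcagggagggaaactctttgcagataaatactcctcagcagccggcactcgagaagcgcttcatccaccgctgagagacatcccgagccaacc
Oas1a: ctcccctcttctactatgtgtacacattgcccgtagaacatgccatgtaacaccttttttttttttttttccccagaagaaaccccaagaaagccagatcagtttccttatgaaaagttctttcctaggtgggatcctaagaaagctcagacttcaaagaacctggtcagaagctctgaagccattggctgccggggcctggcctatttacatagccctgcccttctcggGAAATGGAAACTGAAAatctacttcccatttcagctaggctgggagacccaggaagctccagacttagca
The match began 120 bases before the start in Rsad2, where it lies on the opposite strand, and 213 bases before it in Cxcl10, and 2 overlapping matches lay next to the start of Oas1a. Of the 8 interferon genes that fell, 6 had a window and 3 of these a match, against 3.49% of 27025 promoters of the same length. Among the 12023 of these promoters that belong to tested genes the share was 3.34%. A match describes the letters and shows no binding.

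Cell division genes that passed all fell. On the cell cycle list 8 of 22 fell (36.4%, against 2.57% of all tested genes), none rose, and the median was −0.46. Mcm4, a subunit of the helicase that opens DNA for replication, ranged from 2.17 to 3.91 CPM in hypoxic and from 4.33 to 4.83 CPM in normoxic livers, and the exposures did not overlap (−0.57 ± 0.09; edgeR BH-adjusted p = 0.00323). Ccna2, the cyclin of DNA synthesis and entry into mitosis, likewise did not overlap, at 0.205 to 0.692 against 0.828 to 2.35 CPM, and fell by 1.24 ± 0.21 (edgeR BH-adjusted p = 0.00429). The mitotic cyclin gene Ccnb1 fell by 2.13 ± 0.36 from levels below 1.2 CPM in every library (edgeR BH-adjusted p = 0.0042), a call that DESeq2 did not make. The other members that fell were the helicase genes Mcm2 and Mcm3, the topoisomerase gene Top2a, the proliferation antigen gene Mki67 and the mitotic kinase gene Plk1, by between 0.41 and 1.43 on the log2 scale. Ccng2, an inhibitory cyclin outside this list, also fell, by 0.88 ± 0.13 (edgeR BH-adjusted p = 0.00191). The number of cell cycle members that fell was 0 without the 4 muscle-rich libraries, 5 without the pancreas-rich libraries and 6 without ORX_Nx 4 and ORX_Nx 5, with medians of −0.40, −0.50 and −0.37. Lymphocyte markers summed to medians of 13.5 CPM in hypoxic and 18.2 CPM in normoxic livers, with ranges of 8.66 to 62.7 CPM, the highest being ORX_IH 1, and 8.56 to 38.2 CPM. Of 17 tested lymphocyte markers 15 had negative fold changes, with a median of −0.38, as had all 5 tested neutrophil markers, with a median of −0.86, and the 14 macrophage markers described above. By operation the neutrophil median was 0.218 after sham and −1.84 after orchiectomy, and the macrophage median −0.324 and −0.819. None of these markers was called, and their part in the cell cycle result was not tested.

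The starts of Top2a, at chr11:99024140-99024439, and of Mki67, at chr7:135716330-135716629, both on the minus strand, are shown because each holds 2 copies of the cell cycle homology core, searched as TTTGAA on both strands and given in capitals.
Top2a: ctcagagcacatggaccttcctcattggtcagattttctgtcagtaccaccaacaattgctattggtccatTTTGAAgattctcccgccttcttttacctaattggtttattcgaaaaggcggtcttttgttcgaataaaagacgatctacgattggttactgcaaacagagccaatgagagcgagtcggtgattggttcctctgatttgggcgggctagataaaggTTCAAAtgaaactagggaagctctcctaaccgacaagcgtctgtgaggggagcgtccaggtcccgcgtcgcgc
Mki67: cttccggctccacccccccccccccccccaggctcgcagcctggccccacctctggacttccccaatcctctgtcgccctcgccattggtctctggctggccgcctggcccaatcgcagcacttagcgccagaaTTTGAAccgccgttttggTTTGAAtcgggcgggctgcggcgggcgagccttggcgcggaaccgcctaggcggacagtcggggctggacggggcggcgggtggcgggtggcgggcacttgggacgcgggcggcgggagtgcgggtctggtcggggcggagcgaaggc
This core was in 4 of the 6 cell cycle fallers with a window. It was in 18.1% of the 27025 promoters and in 13.3% of the 12023 of tested genes, so it is a common sequence. The sterol regulatory element, searched as TCACNCCAC, was in none of 4 windows of the cholesterol genes that rose. It was in 1.22% of all promoters and 1.09% of those of tested genes, and absence from a window says nothing about the factor. The start of Egln3 held the hypoxia response core ACGTG, as did 19.7% of all promoters and 23.8% of those of tested genes.

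Several of the firmest calls lay outside any list. Hexa, the lysosomal hexosaminidase that degrades gangliosides, lay between 25.9 and 36.1 CPM in hypoxic livers and between 37.7 and 61.2 CPM in normoxic livers. No hypoxic liver reached the lowest normoxic liver for Hexa, and its log2 fold change was −0.55 ± 0.07 (edgeR BH-adjusted p = 0.000861). Ptpn3, a protein tyrosine phosphatase, rose by 0.30 ± 0.04 with the same adjusted p, from 46.5 ± 1.71 (SD, n = 4) to 56.4 ± 3.98 CPM (SD, n = 5) after sham operation and from 39.9 ± 2.29 to 49.7 ± 1.61 CPM (SD, n = 5 each) after orchiectomy. Rab30, a small GTPase of the Golgi apparatus, fell by 0.68 ± 0.10, and Slc4a4, a sodium bicarbonate cotransporter, by 0.48 ± 0.07 (edgeR BH-adjusted p = 0.00191 each). Pik3c3, the lipid kinase that starts autophagosome formation, fell by 0.27 ± 0.04 without overlap between exposures (edgeR BH-adjusted p = 0.00191). Gpr84, a receptor for medium-chain fatty acids, rose by 1.32 ± 0.20 from means of 0.396 and 0.549 CPM in Sham_Nx and ORX_Nx to 1.18 and 1.20 CPM in Sham_IH and ORX_IH (edgeR BH-adjusted p = 0.00218). The splicing factor gene Rbfox2 rose by 0.33 ± 0.05, the sialyltransferase gene St3gal4 by 0.37 ± 0.05 and the prostaglandin synthase gene Ptgds by 1.54 ± 0.31.

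The remaining lists held few called genes, and over all tested genes 1.84% rose and 2.57% fell. Among 29 acute phase and inflammation genes Il1rn, the interleukin receptor antagonist, fell by 1.19 ± 0.26 (edgeR BH-adjusted p = 0.0157), with levels of 5.90 ± 3.36 in ORX_Nx and 1.84 ± 0.63 CPM in ORX_IH (SD, n = 5 each) while Sham_Nx livers held 1.53 ± 0.30 CPM (SD, n = 4) and Sham_IH livers 1.02 ± 0.18 CPM (SD, n = 5). Of 29 complement and coagulation genes Masp1 and F11 rose, of 30 urea cycle and amino acid genes the histidase gene Hal rose, and of 18 autophagy and lysosome genes Gabarapl1 and Ctsb fell. Ctsb stood at −0.07 ± 0.09 after sham operation and −0.39 ± 0.08 after orchiectomy, a difference that did not pass (edgeR BH-adjusted p = 0.735). Igfbp2 rose and the lipid droplet enzyme gene Hsd17b13 fell among 19 genes of growth hormone and androgen signalling. Of 30 nucleus-encoded respiratory chain genes 27 had positive fold changes and Ndufs1 rose, by 0.18 ± 0.04, while none of 13 mitochondria-encoded genes was called. Of 14 periportal hepatocyte markers Hal rose and Hsd17b13 fell, and 0 of 13 pericentral markers passed. The calls of F11, Hal, Ctsb and Ndufs1 each ended when any of 13, 9, 15 or 4 libraries was left out. Without the pancreas-rich libraries none of the complement, urea cycle, autophagy, respiratory chain or periportal members was called.

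In the additive fit markers of cell types were not called, apart from Alas2 and the periportal pair. The 16 skeletal muscle and 13 pancreatic markers had medians of 1.27 and 2.51 with 0 called. The muscle median was −5.69 after sham operation and 7.06 after orchiectomy, and the pancreatic median 1.01 and 6.43. The 12 hepatocyte markers had 0 called, with summed levels between 121000 and 147000 CPM in hypoxic and between 93200 and 145000 CPM in normoxic livers. Among 5 of 10 neutrophil markers with enough counts to be tested, and among 13 endothelial, 14 stellate cell, 9 cholangiocyte and 5 adipocyte markers, the count was also 0. No marker of these lists was at 0 in every library.

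**Figure D3:**
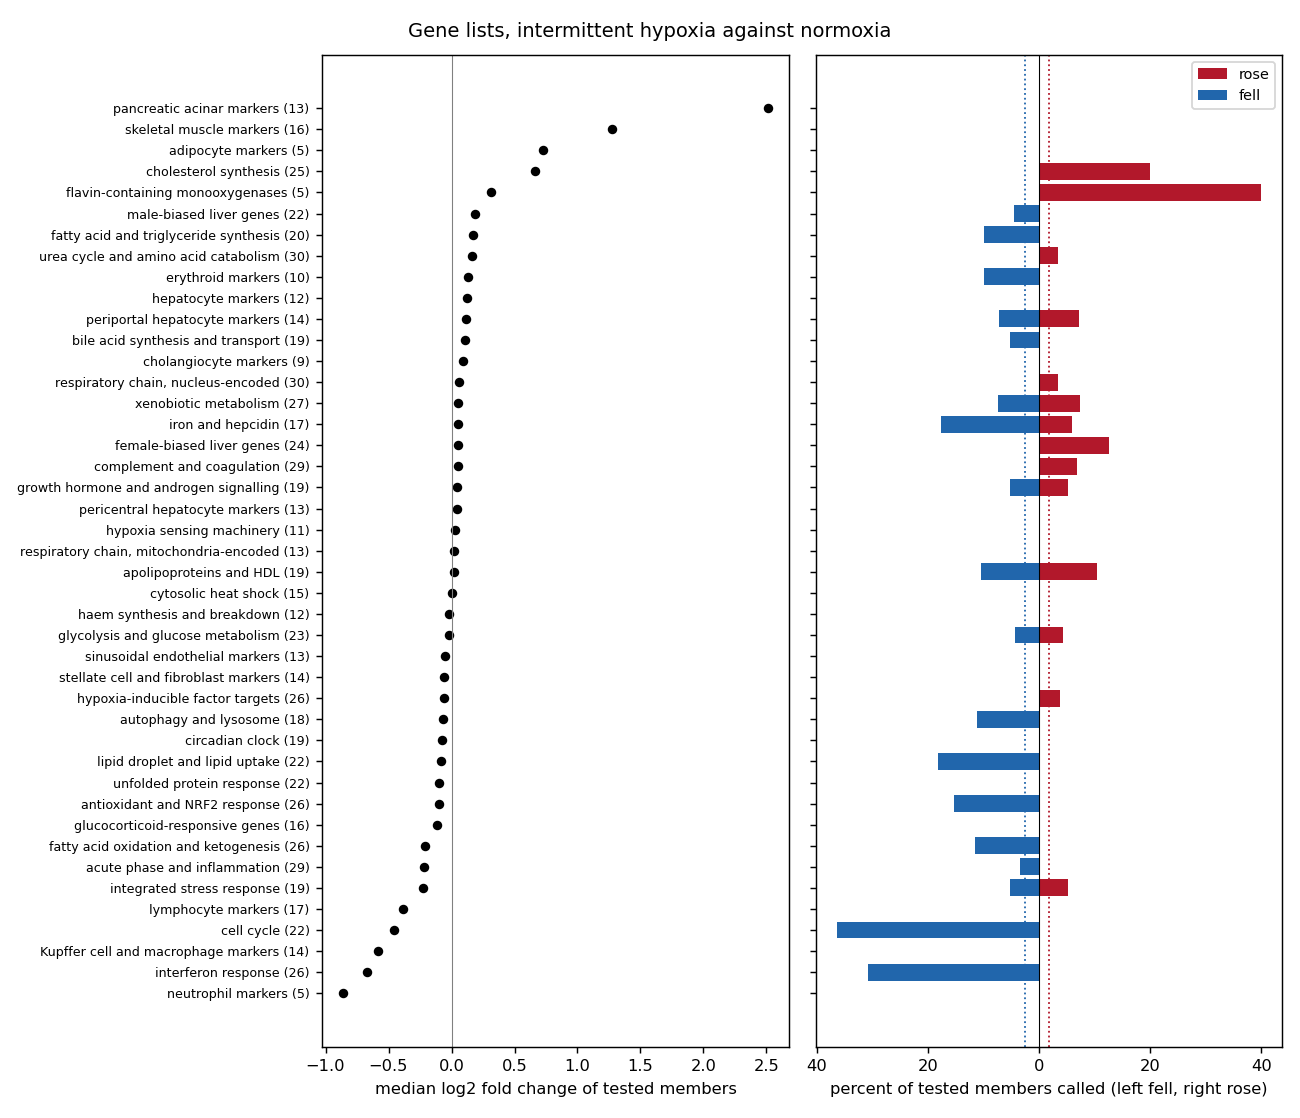
Each row is a gene list, with its number of tested members in brackets. The left panel gives the median log2 fold change and the right panel the percent of members that rose (red) or fell (blue), with dotted lines at the 1.84% and 2.57% of all tested genes that did so; cell cycle and interferon genes have the largest shares that fell, and pancreatic and muscle markers have high medians with no call.

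The design also asks whether hypoxia acted alike after each operation, which a fit of all 4 groups addressed. Pparg, Hexa and Ptpn3 were called within both sham-operated and orchiectomized livers. Pparg fell by 0.66 ± 0.11 after sham operation (edgeR BH-adjusted p = 0.0199) and by 0.60 ± 0.11 after orchiectomy (edgeR BH-adjusted p = 0.0489). Hexa stood at −0.55 ± 0.10 and −0.54 ± 0.10, and Ptpn3 at 0.28 ± 0.06 and 0.32 ± 0.05. Within sham-operated livers 16 genes rose and 33 fell (49 called, 0.303% of the tested genes), and within orchiectomized livers 3 rose and 9 fell (12 called, 0.0742%).

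No gene passed edgeR's test of the interaction, the difference in response between operations (0 genes, 0%). At an unadjusted p under 0.05 there were 1025 genes, and the smallest adjusted p was 0.224. The count was also 0 with other or no scaling factors, with no filter on low counts and with a replicate block. It stayed at 0 when each library was left out in turn. The interaction was not tested without the muscle-rich libraries, the pancreas-rich libraries or both ORX_Nx libraries high in inflammation genes. Among the 713 genes 5.05% had an unadjusted interaction p under 0.05, against 6.34% of all tested genes. All 713 had the same sign in both operations, as did 62.6% of all tested genes, and the way they were chosen bears on that. Intervals of single genes stayed wide: the difference in log2 fold change, orchiectomy minus sham, was 0.06 ± 0.16 for Pparg, 0.10 ± 0.45 for Cux2 and −1.53 ± 0.48 for Sqle. In 60 genes (0.371%) the exposures did not overlap within either operation, 27 higher and 33 lower in hypoxia, among them Cpt1a, Slc4a4, Ccng2, Alas2, Atf4, Gpr84 and Rbfox2.

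Each operation was also fitted with its own libraries, so that both fits shared none. In sham-operated livers alone 232 genes rose and 251 fell (483 called, 3.19% of 15133), and in orchiectomized livers alone 1 gene was called, Trp53inp1, which fell (0.0065% of 15393, with 1961 at an unadjusted p under 0.05). The calls in sham-operated livers alone included the skeletal muscle markers Acta1 and Ckm, at −6.10 and −4.75. Of the 480 genes called in sham-operated livers and tested in orchiectomized livers, 91.7% had the same sign there, against 63.4% of 14906 genes tested in both. Of these 480 genes 27.7% had the same sign and an unadjusted p under 0.05 after orchiectomy, against 10.3% of all genes tested in both. Across genes the fold changes of both fits had a Spearman rho of 0.35 and a Pearson r of 0.14, given as a description since genes are not independent.

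**Figure D4:**
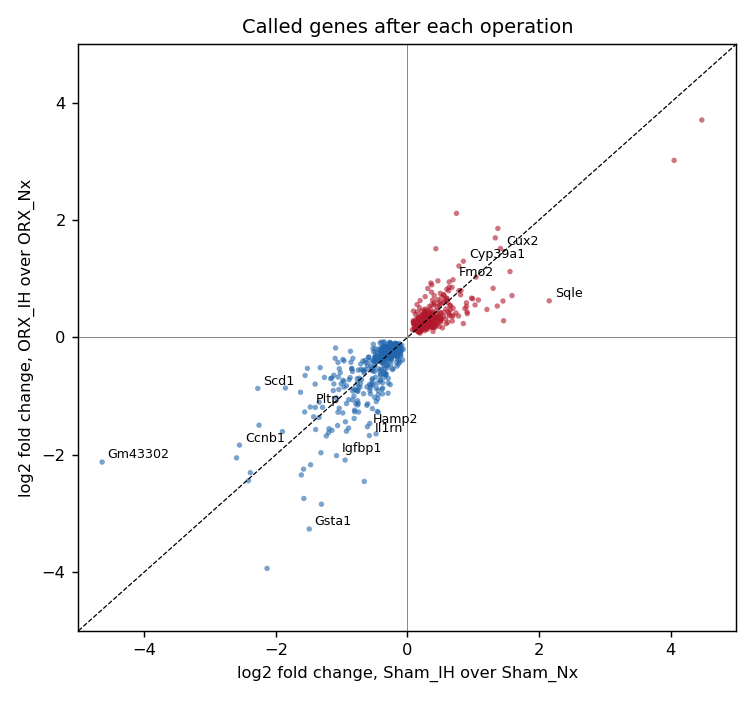
Each point is a called gene, with its log2 fold change under hypoxia in sham-operated livers (x axis) and in orchiectomized livers (y axis), and the dashed line marks equal change. All 713 points lie in the quadrants of equal sign, with Sqle and Scd1 further out after sham operation and Gsta1 and Igfbp1 further out after orchiectomy.

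The authors' deposited table, whose test covers all 4 groups at once, has a q-value under 0.05 for 1450 genes, of which 380 were among the 713 called for hypoxia. Scaling left the count near 713, at 720 with DESeq2's relative log expression factors. With no scaling factors it was 610, of which 29.2% rose against 41.7% in the reported fit.

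**Figure D5:**
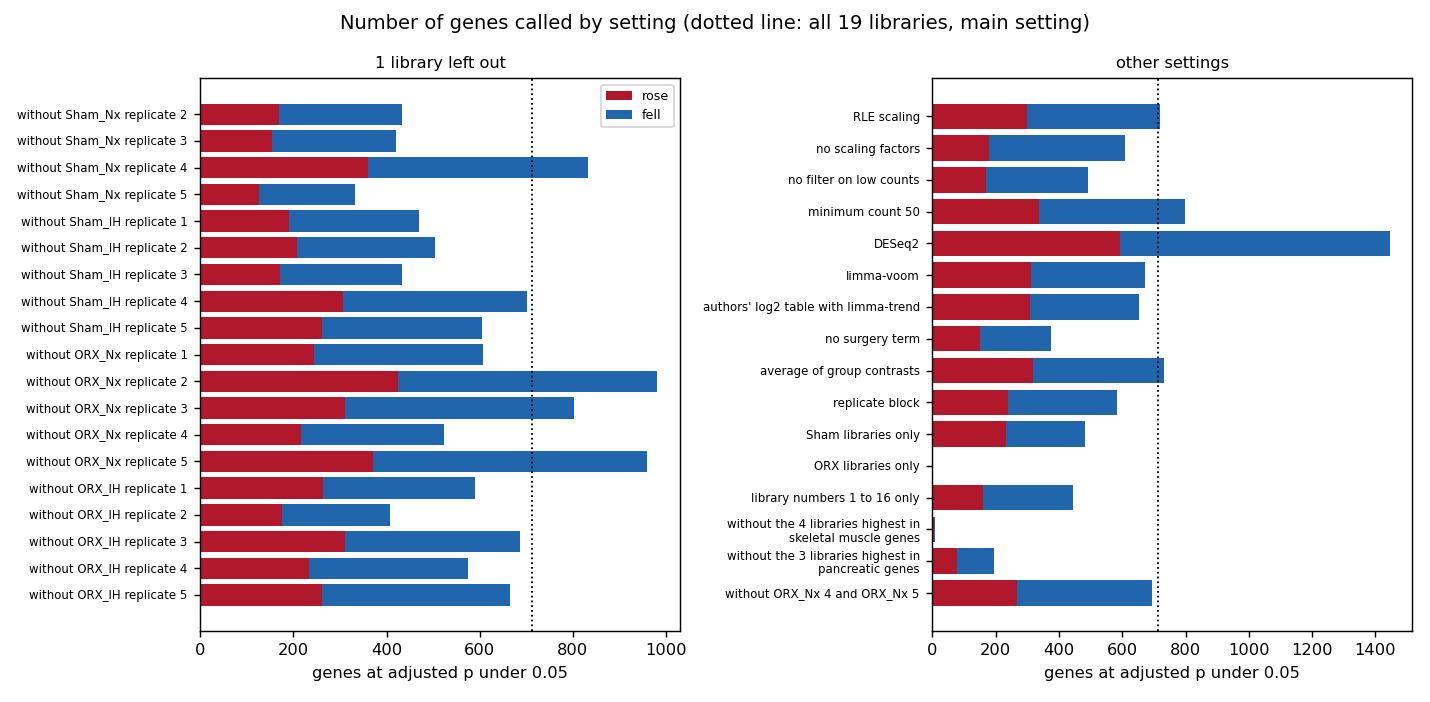
Bars give the number of genes that rose (red) and fell (blue) at an adjusted p under 0.05 when 1 library was left out (left) and under other settings (right), with a dotted line at 713. The count ran from 333 to 982 with 1 library left out, was 1445 with DESeq2 and was 8 when the 4 muscle-rich libraries were dropped.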

How the data were processed

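Polyadenylated liver RNA was sequenced from strand-specific libraries, per the labels' protocols. Per the submitters' processing notes, the tools were kallisto 0.46.1, bcl2fastq 2.20, fastp 0.23.2, MultiQC 1.12 and FastQC 0.11.9, and the build was GRCm39. The authors deposited estimated counts per gene, not normalized, for 36106 genes; 27.5% of values were not whole within a tolerance of 1e-06 and were rounded, which left 11593 genes at 0 in every library. Such estimates can split reads between near-identical genes. The authors also deposited a table of log2 expression with a score, a p-value and a q-value per gene; how it was normalized is not stated in those sources, and the pseudocount of 1 intended for it was not added, since its values are already logarithms.

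Genes were kept by filterByExpr in edgeR 4.0.16 with a minimum count of 10 (R 4.3.3), libraries were scaled by the trimmed mean of M-values (TMM), and the quasi-likelihood F-test was fitted over all 19 libraries on exposure and surgery. P-values were adjusted by the Benjamini-Hochberg method over 16164 genes. Standard errors are the absolute fold change divided by the square root of F. Contrasts within operations and the interaction came from a fit of the 4 groups. Of the genes 60 share a symbol and 64 have none, and these were named by identifier.

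On counts simulated for this comparison over 16164 genes, 52 of 100 genes changed 1.5-fold and 75 of 100 changed 2-fold were recovered, with 5 false calls. The counts were drawn for each gene on its own, without variation shared by genes of a library, such as RNA of other tissues. These figures therefore do not cover such variation. Depth ran from 29.3 to 69.6 M counts, and 3 counts in a library were taken as the floor. Over 36 replicate pairs the chi-square per degree of freedom lay between 19.3 and 184, so none agreed within sampling noise. Mice of different groups share numbers, but same-numbered libraries correlated at −0.07 to 0.05 on average, so the numbers were not taken as pairs.

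The text names up to 12 risers and 12 fallers with the smallest p, up to 5 each with the largest fold change at a mean of at least 1 CPM, up to 3 called members per list or the member with the smallest p where none was called, and Fmo1, Fmo2, Fmo4 and Fmo5; some genes that the rule names are not reported here, and other genes were named after their values were seen. The comparison, the lists and the rule were chosen with earlier results of these data known, and the counts per list under other settings were added after seeing the data. Alternatives were other scalings and filters, DESeq2 1.42.0, limma-voom and limma-trend (limma 3.58.1), other models, a replicate block and libraries left out.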

Additional observations from a re-analysis of the deposited data

Results flagged for a closer look

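Among 364 pairs of a named gene and a group, 31 had a library whose distance to its nearest neighbour took up most of the group's range, by Dixon's criterion at the 95% level, and chance flags about 1 in 20 groups. ORX_Nx 5 held 7 of them: it was the lowest of its group for Tmem64 (49.3 CPM), Hsd17b13 (303.2 CPM) and Epas1 (93.7 CPM), and the highest for Ccna2 (2.35 CPM), Gsta1 (14.1 CPM), Gm3776 (8.52 CPM) and Neb (35.3 CPM). In the other ORX_Nx libraries, replicate 3 was highest for Cftr (0.206 CPM) and replicate 4 for Igfbp1 (103.4 CPM).

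In ORX_IH, replicate 1 was highest for Zg16 (8.52 CPM) and Cfd (20.1 CPM), and replicate 2 for Klf9 (74.6 CPM). Replicate 3 was lowest for Oas2 (2.30 CPM) and highest for Gabarapl1 (283 CPM). Replicate 4 was lowest for Fmo2 (60.01 CPM) and highest for Cyp4a12a (4.96 CPM) and F11 (67.5 CPM), and replicate 5 was highest for Pik3c3 (18.0 CPM) and Irf7 (47.1 CPM).

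In Sham_Nx, replicate 2 was lowest for Hal (285 CPM), and replicate 3 highest for Zfp704 (13.4 CPM). Replicate 4 was lowest for Gsta1 (0.614 CPM) and highest for Hjv (108.8 CPM), and replicate 5 was highest for Ccna2 (1.28 CPM) and Zg16 (10.4 CPM). In Sham_IH, replicate 1 was lowest for 5031439G07Rik (36.4 CPM) and highest for Gm43302 (0.647 CPM), and replicate 3 was highest for Zfp704 (9.87 CPM). Replicate 4 was highest for Apom (226 CPM) and lowest for Ephx1 (306 CPM), and replicate 5 was highest for Zg16 (41.3 CPM), a gene of pancreatic acinar cells.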

How the results depend on the processing

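The 713 calls kept their direction in every setting that tested them, but they had been chosen from the same libraries, which bears on that. The count was 1445 with DESeq2, 376 without the surgery term, 444 with library numbers 1 to 16 only, 8 without the 4 muscle-rich libraries, 196 without the 3 pancreas-rich ones and 1 with ORX libraries only. It lay between 333 and 982 with 1 library left out, and fell by more than 1.5 times without Sham_Nx 2 (433), Sham_Nx 3 (420), Sham_Nx 5 (333), Sham_IH 1 (469), Sham_IH 3 (434) or ORX_IH 2 (408); the cause was not tested, although fewer samples entered each of these fits. Other settings gave 483 (Sham libraries only) to 797 (minimum count 50). The mouse numbers were not taken as pairs, although 8 of 19 libraries correlated best with a library of their own number. Libraries of mice numbered 5, which bear library numbers 17 to 20, correlated at up to 0.395. With a replicate block 583 genes were called. Within sham-operated livers the count of 49 became 483 when only both of its groups entered the fit and ran from 1 to 197 with 1 library left out. Within orchiectomized livers the count of 12 became 1 when only both of its groups entered, 0 with no filter on low counts and 0 with the replicate block, and ran from 0 to 232. Of the 91 named genes 69 were called, and 2038 of their 2414 values under other settings stayed called. Of 3181 values of named genes 9 reversed, all in uncalled genes. Cfd (1.27 as reported) became −0.995 with limma-voom, −1.04 in the authors' table, −1.08 with the replicate block, −0.19 in Sham libraries only, −1.68 and −1.75 without the muscle-rich and pancreas-rich libraries and ran from −1.19 (without ORX_IH 1) to 1.69 with 1 library left out. Neb (0.48) became −0.21 without the muscle-rich libraries, and Snhg11, a nuclear RNA (0.08), ran from −0.012 (without ORX_IH 4) to 0.12 with 1 library left out. Low counts kept 5 of 10 neutrophil and 4 of 9 adipocyte markers from being tested.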
